A study of Mus musculus with 6 samples.

Results

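The RAS and ERK pathway was followed in mouse KP cells through 38 genes, comprising pathway components, feedback inhibitors and output genes. They were taken as a list of symbols and matched to the Ensembl identifiers of the count tables. All 38 were found among the 48526 gene identifiers, and all 38 had enough counts to be tested, among 14531 genes tested in all. The study compared KP cells with and without knockdown of Npm1, the gene of the nucleolar protein nucleophosmin. KP is the cell type as the labels give it, and they name no tissue or genotype behind it. Every culture carried pLKO.1-Tet on, a vector that makes a short hairpin RNA only when doxycycline is present. The hairpin was shNpm1-3 (N3), shNpm1-4 (N4) or shNpm1-5 (N5), and each had given 1 stable line after selection with puromycin, called line 3, line 4 and line 5 here. The groups were cells treated with 100 ng/ml doxycycline (knockdown, 3 libraries) and cells of the same lines without doxycycline (hairpin not induced, 3 libraries). The labels used here give no length of treatment and no batch. Each line had 1 library per condition, and the spread behind the main comparison of the 2 groups is that between lines. No library combined doxycycline with a line lacking an Npm1 hairpin, so that the drug and the knockdown cannot be told apart.

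RAS proteins are small GTPases that, when loaded with GTP at the membrane, start a kinase relay from RAF through MEK to ERK. ERK then phosphorylates transcription factors, and immediate early genes such as Egr1 and Ier2 are made within minutes. Another set of ERK-driven genes encodes inhibitors of the same relay, among them dual specificity phosphatases that remove phosphate from MAP kinases, and Sprouty and Spred proteins that act at RAS and RAF. Transcripts of these feedback genes are often read as a measure of ERK output in epithelial tumour cells.

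The libraries held 24391198 to 27341036 counts in genes. Npm1 (ENSMUSG00000057113, chr11:33152287-33163206, minus strand; coordinates here are those of mm10) was at 67.8, 245 and 399.7 CPM with doxycycline in lines 3, 4 and 5, against 2002, 1851 and 1924 CPM without it (log2 fold change -3.02 ± 0.49 SE, adjusted p = 0.0110 by edgeR), so that 3.39%, 13.2% and 20.8% remained. Keratin genes Krt7, Krt8, Krt18 and Krt19 gave most of the summed level of 12 epithelial markers, at 16542, 11847 and 15022 CPM with doxycycline in lines 3, 4 and 5, against 15465, 17784 and 17382 CPM without it. Of 25 tested macrophage markers 20 rose and none fell, and of 20 tested T lymphocyte markers 15 fell and none rose. The 27 listed macrophage markers summed to 506 to 778 CPM with doxycycline and 418 to 483 CPM without it, and the 21 listed T lymphocyte markers to 20.2 to 28.8 CPM with doxycycline and 58.2 to 69.99 CPM without it. The macrophage sum without doxycycline was mostly Mrc1, at a mean of 383 CPM. Among the listed T lymphocyte markers Cd3d, Cd8b1, Nkg7 and Ifng had 0 counts with doxycycline. From bulk counts such as these, fewer cells of a type and less RNA per cell cannot be told apart.

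Of the 38 genes, 1 fell and none rose with doxycycline over all genes tested, while 37 did not pass (edgeR quasi-likelihood test, adjusted p under 0.05). Over all 14531 genes the same test called 1.32% lower and 0.963% higher, or 2.28% in either direction. The gene that fell was Dusp2, a MAP kinase phosphatase of the nucleus. The median log2 fold change of the 38 genes was -0.19, against 0.00 over all genes tested, and 25 of the 38 were below 0. At an unadjusted p under 0.05, 11 were lower and 3 higher, which is 28.9% and 7.89% of the genes, against 7.96% and 8.33% over all genes tested. The 2 groups of libraries did not overlap for 12 genes that were lower and 3 that were higher with doxycycline (31.6% and 7.89%, against 11.2% and 11.3% over all genes tested). Offsets that remove each library's trend on GC content and transcript length moved the median of the 38 genes to -0.08, with 23 below 0. The list was chosen with earlier results of these data known. These shares and medians therefore describe the list and do not test it.

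**Figure D1:**
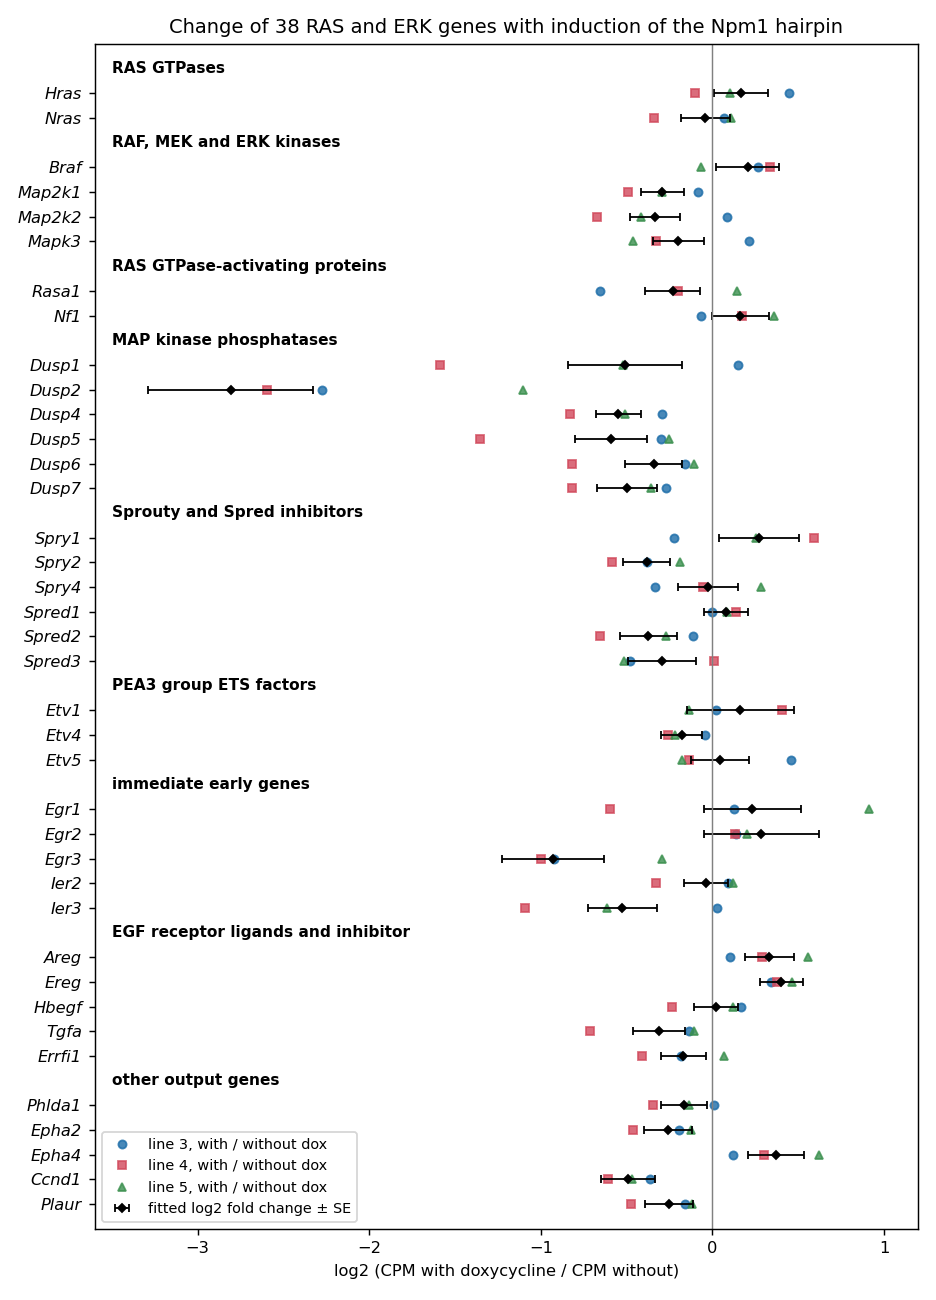
Log2 ratio of CPM with doxycycline to CPM without it (x axis) for each of the 38 genes (y axis), grouped by role; coloured points are the ratios within lines 3, 4 and 5 after adding 0.5 CPM to each value, which draws those of low genes such as Dusp2 towards 0, and black diamonds with bars are the fitted log2 fold change ± SE. Dusp2 stands alone at -2.81, the fitted values of the 6 phosphatase genes are all left of 0, and Areg and Ereg are right of 0 in each line.

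The relay itself, from RAS to ERK, held no gene that passed. Hras and Nras encode the RAS GTPases at its head. Hras was at 120.0, 79.2 and 104 CPM with doxycycline in lines 3, 4 and 5, against 87.9, 85.2 and 97.1 CPM without it (log2 fold change 0.17 ± 0.16 SE, adjusted p = 0.662 by edgeR). Nras was at 164, 125 and 176 CPM with doxycycline in lines 3, 4 and 5, against 157, 158 and 163 CPM without it (log2 fold change -0.04 ± 0.15 SE, adjusted p = 0.929 by edgeR). In both genes the groups overlapped, with the treated library of line 4 the lowest of the 6. Map2k1 and Map2k2 encode MEK1 and MEK2, the kinases that activate ERK. Map2k1 was at 205, 184 and 194 CPM with doxycycline in lines 3, 4 and 5, against 217, 259 and 238 CPM without it (log2 fold change -0.29 ± 0.12 SE, adjusted p = 0.283 by edgeR), and its groups did not overlap. Map2k2 was at 87.4, 67.0 and 72.0 CPM with doxycycline in lines 3, 4 and 5, against 82.4, 107 and 96.4 CPM without it (log2 fold change -0.34 ± 0.15 SE, adjusted p = 0.296 by edgeR), and the treated library of line 3 lay above the untreated one of the same line. Its adjusted p became 0.0479 when both libraries of line 3 were left out, in a range of 0.0479 to 0.851 over 18 alternatives. Mapk3, the gene of ERK1 and the highest of the kinase genes by mean level per transcript length, was at 189, 172 and 151 CPM with doxycycline in lines 3, 4 and 5, against 163, 216 and 209 CPM without it (log2 fold change -0.20 ± 0.15 SE, adjusted p = 0.560 by edgeR). Braf, the RAF kinase gene of the list, had a log2 fold change of 0.20 (adjusted p = 0.644 by edgeR).

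Rasa1 and Nf1 encode GTPase-activating proteins, which switch RAS off by speeding its hydrolysis of GTP. Rasa1 was at 27.8, 37.1 and 38.9 CPM with doxycycline in lines 3, 4 and 5, against 44.0, 42.6 and 35.2 CPM without it (log2 fold change -0.23 ± 0.16 SE, adjusted p = 0.527 by edgeR), with the treated library of line 3 the lowest of the 6. Nf1, the gene of neurofibromin, was at 13.9, 18.2 and 16.2 CPM with doxycycline in lines 3, 4 and 5, against 14.6, 16.1 and 12.5 CPM without it (log2 fold change 0.16 ± 0.17 SE, adjusted p = 0.692 by edgeR). Neither gene passed, and both groups overlapped in each.

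The MAP kinase phosphatase genes were the role group with the lowest median log2 fold change, -0.53 over 6 genes, and all 6 were below 0. Dusp6 and Dusp7 encode cytoplasmic phosphatases selective for ERK, Dusp5 a nuclear one selective for ERK, and Dusp1, Dusp2 and Dusp4 nuclear ones with a wider choice of MAP kinases. Dusp2 fell (ENSMUSG00000027368, chr2:127336159-127338376, plus strand). It was at 0.366, 0.165 and 0.842 CPM with doxycycline in lines 3, 4 and 5, against 3.70, 3.53 and 2.38 CPM without it, or 8, 5 and 22 counts with doxycycline and 96, 90 and 62 counts without it. Every treated library was below every untreated one, and the means were 0.458 ± 0.348 CPM with doxycycline and 3.20 ± 0.716 CPM without it (SD, n = 3 each). The fit gave a log2 fold change -2.81 ± 0.48 SE, adjusted p = 0.0139 by edgeR. Exact permutation of the 6 Dusp2 values between groups, 2-sided, returned p = 0.1, which is the floor of a design with 3 libraries a side. The call rested on the untreated libraries of lines 3 and 4: without the first the adjusted p was 0.12, without the second 0.0915, and without both libraries of line 3 or of line 4 it was 0.0549 or 0.146, while the log2 fold change lay between -3.80 (without line 5) and -2.30 (without line 4) over 17 alternatives, with adjusted p of 2.02e-11 to 0.146. Dusp2 is known in lymphocytes as PAC-1, and it moved beside the T lymphocyte markers, which summed to 27.7, 20.2 and 28.8 CPM with doxycycline in lines 3, 4 and 5, against 64.7, 69.99 and 58.2 CPM without it. Their part in its fall was not tested.

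The other 5 phosphatase genes did not pass. Dusp4 was at 59.6, 48.8 and 52.8 CPM with doxycycline in lines 3, 4 and 5, against 73.2, 87.1 and 75.3 CPM without it (log2 fold change -0.55 ± 0.13 SE, adjusted p = 0.0657 by edgeR). Its groups did not overlap, and it passed in 4 of 18 alternatives, with adjusted p of 0.0114 to 0.508. Dusp6, which had the highest mean level per transcript length of the 38 genes, was at 368, 257 and 382 CPM with doxycycline in lines 3, 4 and 5, against 413, 454 and 412 CPM without it (log2 fold change -0.34 ± 0.17 SE, adjusted p = 0.343 by edgeR). Dusp5 was at 69.3, 40.4 and 77.0 CPM with doxycycline in lines 3, 4 and 5, against 85.3, 104 and 92.0 CPM without it (log2 fold change -0.59 ± 0.21 SE, adjusted p = 0.198 by edgeR), and 22.1% of its exonic bases are shared with an annotated gene on the opposite strand. It passed when no filter on low counts was used (adjusted p = 0.0069, in a range to 0.673 over 18 alternatives). Dusp7 was at 13.0, 11.8 and 15.5 CPM with doxycycline in lines 3, 4 and 5, against 15.7, 21.2 and 20.1 CPM without it (log2 fold change -0.50 ± 0.17 SE, adjusted p = 0.186 by edgeR). In Dusp4, Dusp5, Dusp6 and Dusp7 alike the treated library of line 4 was the lowest of the 6 and the untreated library of line 4 the highest. Dusp1, a stress-responsive gene as well as an ERK output, was at 42.3, 12.8 and 22.6 CPM with doxycycline in lines 3, 4 and 5, against 38.2, 39.6 and 32.7 CPM without it (log2 fold change -0.51 ± 0.33 SE, adjusted p = 0.491 by edgeR). Here the treated library of line 3 was the highest of the 6, and without it the log2 fold change was -1.05 with an adjusted p of 0.0101, in a range of 0.0101 to 0.94 over 18 alternatives. Without both libraries of line 4 the median of the 6 phosphatase genes was -0.30, and all 6 were still below 0.

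**Figure D2:**
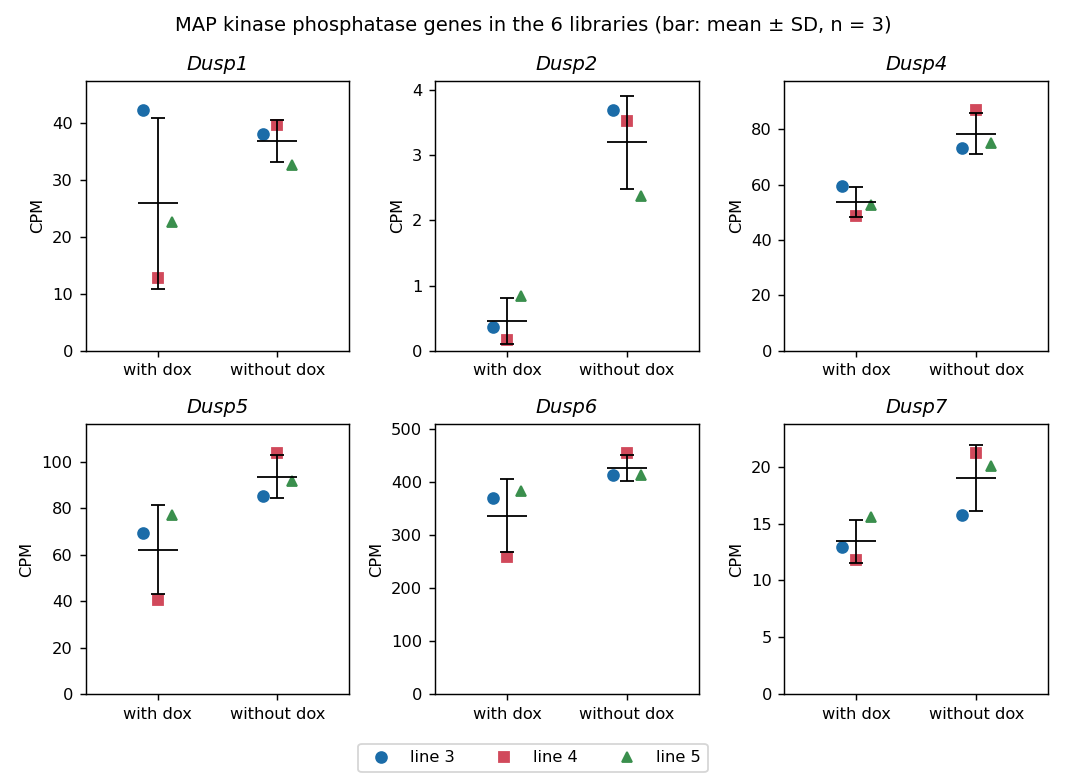
CPM (y axes, from 0) of the 6 MAP kinase phosphatase genes in libraries with doxycycline (left) and without it (right); points are lines 3, 4 and 5, and the bars the mean ± SD of 3 libraries. The groups do not overlap except in Dusp1, and the red squares of line 4 are lowest on the left in every panel.

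The bases just before the starts of these genes are shown because the phosphatase genes all had log2 fold changes below 0, to set out which response elements each one holds. RefSeq promoter entries were matched for 27 of the 38 genes (build GRCm38.p6), and the 250 bases before each start were searched on both strands for the CRE (TGACGTCA), the CArG box bound by serum response factor, the AP-1 site (TGANTCA), an ETS site (CCGGAA) and an EGR site (GCGNGGGCG). The windows below are the last 150 bases before the start, read on the strand of the gene, and capitals mark matches to any of these motifs. They lie at chr17:26508473-26508622 (minus strand), chr2:127336009-127336158, chr19:53528995-53529144, chr10:99263081-99263230, chr9:106368482-106368631 and, for the ligand gene Areg described further on, chr5:91139449-91139598 (plus strand for these 5).
Dusp1: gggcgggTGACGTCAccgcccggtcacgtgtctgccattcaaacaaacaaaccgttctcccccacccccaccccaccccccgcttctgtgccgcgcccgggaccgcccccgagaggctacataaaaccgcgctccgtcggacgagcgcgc
Dusp2: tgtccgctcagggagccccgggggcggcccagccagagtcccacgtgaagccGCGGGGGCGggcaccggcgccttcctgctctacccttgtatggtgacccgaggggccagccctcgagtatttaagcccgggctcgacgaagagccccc
Dusp5: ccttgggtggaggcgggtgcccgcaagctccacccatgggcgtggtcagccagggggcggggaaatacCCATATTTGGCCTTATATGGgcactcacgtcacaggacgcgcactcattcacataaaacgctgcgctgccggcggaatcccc
Dusp6: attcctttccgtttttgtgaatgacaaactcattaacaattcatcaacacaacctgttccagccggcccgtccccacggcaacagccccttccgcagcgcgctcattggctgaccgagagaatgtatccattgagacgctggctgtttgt
Dusp7: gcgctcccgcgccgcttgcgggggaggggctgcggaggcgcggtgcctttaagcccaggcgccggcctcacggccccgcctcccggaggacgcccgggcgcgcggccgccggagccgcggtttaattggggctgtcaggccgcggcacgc
Areg: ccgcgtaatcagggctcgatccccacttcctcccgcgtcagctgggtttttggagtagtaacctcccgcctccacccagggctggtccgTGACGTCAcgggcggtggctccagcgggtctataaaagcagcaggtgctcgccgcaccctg

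Dusp1 and Areg each held a CRE, Dusp2 an EGR site and Dusp5 a pair of adjoining CArG boxes, while none of the 5 motifs was found in the windows of Dusp6 and Dusp7. Within 250 bases the CRE was found before 5 of the 27 genes (Areg, Braf, Dusp1, Epha2 and Errfi1), against 1.55% of 32851 promoters. The CArG box was found before 2 (Dusp5 and Egr2), against 1.47% of promoters, the ETS site before 5 against 12.03%, the EGR site before 2 (Dusp2 and Plaur) against 4.7%, and the AP-1 site before 1 (Plaur) against 6.75%. Some genes have more than 1 promoter entry. Each of the 27 genes was counted once if any of its entries matched, while the percentages count single promoter entries. The 2 are thus not measured alike. Of the 5 phosphatase genes shown, Dusp1, Dusp2 and Dusp5 thus held 3 different motifs. A match describes the letters of the window and no more.

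Sprouty and Spred genes encode inhibitors that ERK signalling induces and that act back on RAS and RAF, and the 6 of them lay on both sides of 0. Spry2, the highest of the 6 per transcript length, was at 33.2, 30.9 and 40.04 CPM with doxycycline in lines 3, 4 and 5, against 43.5, 46.6 and 45.7 CPM without it (log2 fold change -0.38 ± 0.14 SE, adjusted p = 0.193 by edgeR), with no overlap of the groups. Spred2 was at 19.4, 19.4 and 18.8 CPM with doxycycline in lines 3, 4 and 5, against 21.02, 30.8 and 22.7 CPM without it (log2 fold change -0.37 ± 0.17 SE, adjusted p = 0.299 by edgeR), again without overlap. The treated libraries were nearly equal, and the untreated ones were spread by line 4, the highest. Spry1 and Spred1 stood at log2 fold changes of 0.27 and 0.08, Spry4 of -0.02 and Spred3 of -0.30, with adjusted p of 0.505 to 0.966 by edgeR. Their groups overlapped, and Spry1 shares 24.4% of its exonic bases with an annotated gene on the opposite strand. The median of the 6 genes was -0.16, and none passed. The median moved to -0.03 with the GC content and length offsets, also to -0.03 without the treated library of line 3, -0.04 without both libraries of line 3, -0.10 without the untreated library of line 4 and -0.10 without both libraries of line 4.

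Etv1, Etv4 and Etv5 form the PEA3 group of ETS transcription factors, widely used as transcript markers of ERK output. Etv4 was the highest of the 3 per transcript length and was at 56.2, 55.9 and 57.9 CPM with doxycycline in lines 3, 4 and 5, against 58.0, 66.9 and 67.5 CPM without it (log2 fold change -0.18 ± 0.12 SE, adjusted p = 0.504 by edgeR). Its groups did not overlap, but the untreated library of line 3 lay just above the highest treated one. With the GC content and length offsets its log2 fold change was -0.007 (adjusted p = 0.986 by edgeR). Etv1 was at 1.10, 1.62 and 1.07 CPM with doxycycline in lines 3, 4 and 5, against 1.08, 1.10 and 1.23 CPM without it (log2 fold change 0.16 ± 0.31 SE, adjusted p = 0.856 by edgeR), the lowest level per transcript length of the 38 genes. Etv5 had a log2 fold change of 0.04 (adjusted p = 0.935 by edgeR). The 3 genes had a median of 0.04 and none passed. With libraries or lines left out that median lay between -0.16 and 0.15, on both sides of 0.

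The immediate early genes split, and none passed. Egr3, a zinc finger factor of the EGR family that is strong in activated lymphocytes as well, was at 1.33, 1.02 and 1.72 CPM with doxycycline in lines 3, 4 and 5, against 2.96, 2.55 and 2.23 CPM without it (log2 fold change -0.93 ± 0.30 SE, adjusted p = 0.157 by edgeR). All treated libraries were below all untreated ones, beside the same lower T lymphocyte sum, whose part was not tested. Ier3, a regulator of survival and the highest immediate early gene per transcript length, was at 114, 63.9 and 74.9 CPM with doxycycline in lines 3, 4 and 5, against 112, 137 and 115 CPM without it (log2 fold change -0.53 ± 0.20 SE, adjusted p = 0.226 by edgeR). The treated library of line 3 lay within the untreated range. Without that library the log2 fold change of Ier3 was -0.80 with an adjusted p of 0.00456, in a range of 0.00456 to 0.795 over 18 alternatives. Egr1, the best known ERK-induced factor, was at 12.1, 9.48 and 21.9 CPM with doxycycline in lines 3, 4 and 5, against 11.1, 14.6 and 11.4 CPM without it (log2 fold change 0.23 ± 0.28 SE, adjusted p = 0.745 by edgeR). The treated libraries were lowest in line 4 and highest in line 5, on both sides of the untreated range. Ier2 was at 70.6, 59.1 and 74.0 CPM with doxycycline in lines 3, 4 and 5, against 66.4, 74.3 and 68.2 CPM without it (log2 fold change -0.04 ± 0.13 SE, adjusted p = 0.930 by edgeR). Egr2 lay between 0.499 and 0.694 CPM in all 6 libraries, on 13 to 21 counts each. Every treated library was above every untreated one for Egr2 (log2 fold change 0.29 ± 0.33 SE, adjusted p = 0.733 by edgeR).

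Ligands of the EGF receptor, which close an autocrine loop onto RAS, held 2 of the 3 members with the largest positive log2 fold changes, Ereg and Areg, although none passed. Areg encodes amphiregulin and was the second highest of the 38 genes by mean level per transcript length. It was at 136.1, 166 and 192 CPM with doxycycline in lines 3, 4 and 5, against 127, 135.9 and 130.2 CPM without it (log2 fold change 0.33 ± 0.14 SE, adjusted p = 0.288 by edgeR). Ereg, the gene of epiregulin, was at 25.8, 26.6 and 26.8 CPM with doxycycline in lines 3, 4 and 5, against 20.3, 20.3 and 19.3 CPM without it (log2 fold change 0.40 ± 0.13 SE, adjusted p = 0.148 by edgeR). In both genes every treated library was above every untreated one, by a narrow margin in Areg. Over 18 alternatives the adjusted p was 0.0292 to 0.875 for Areg, which passed without the treated library of line 3, and 0.0567 to 0.706 for Ereg, which passed in none. Ereg (chr5:91074622-91093646) and Areg (chr5:91139599-91148432) are neighbours 46.0 kb apart on the plus strand, and the ligand gene Btc, of betacellulin, lies beyond them on the minus strand (chr5:91357261-91402994). Btc, which is not among the 38 genes, was at 125, 81.7 and 125 CPM with doxycycline in lines 3, 4 and 5, against 189, 149 and 147 CPM without it (log2 fold change -0.55 ± 0.18 SE, adjusted p = 0.164 by edgeR), with no overlap in the other direction. Of these 3 neighbours, Ereg and Areg lay above 0 and Btc below it. Tgfa and Hbegf, whose ligands bind the same receptor, came to log2 fold changes of -0.31 and 0.02, and Errfi1, an inhibitor of the EGF receptor that ERK induces, one of -0.17 (adjusted p = 0.348, 0.958 and 0.578 by edgeR).

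**Figure D3:**
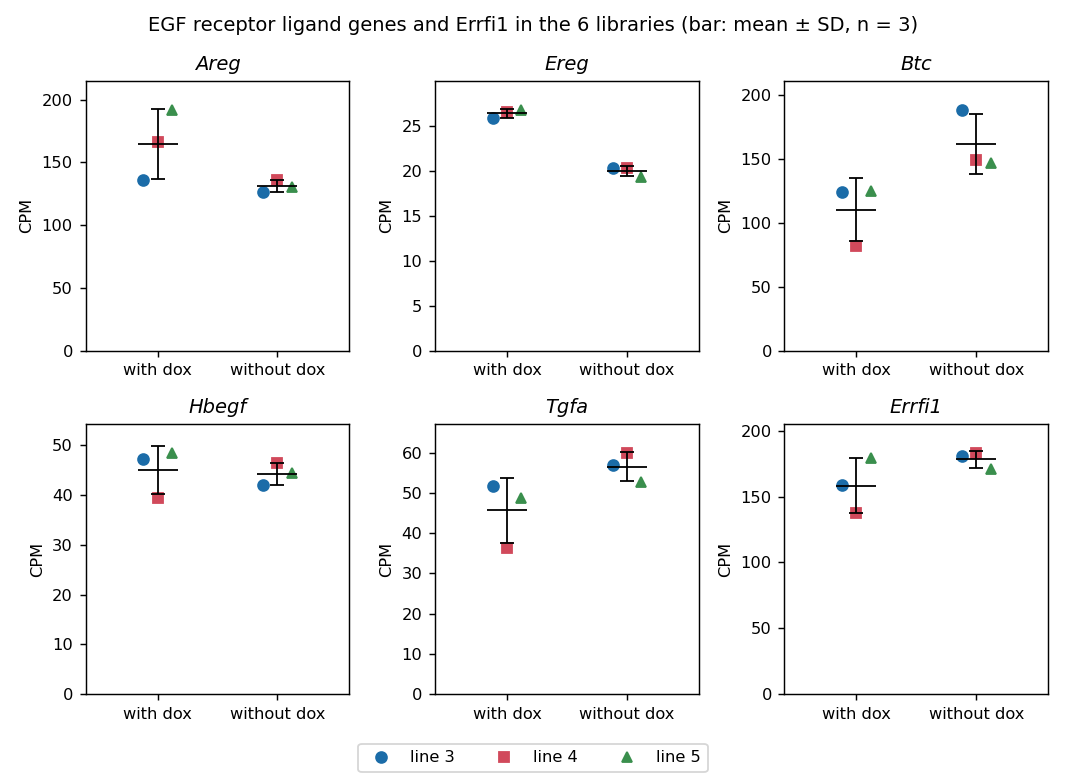
CPM (y axes, from 0) of 5 EGF receptor ligand genes and of the receptor inhibitor gene Errfi1 in libraries with doxycycline (left) and without it (right); points are lines 3, 4 and 5, and bars the mean ± SD of 3 libraries. Areg and Ereg lie higher on the left without overlap, Btc and Tgfa lower without overlap, and Hbegf and Errfi1 overlap.

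The remaining output genes had a median of -0.25 and no call, and the median was -0.05 with the GC content and length offsets and -0.14 without both libraries of line 4. Ccnd1 encodes cyclin D1, through which ERK promotes entry into the cell cycle. It was at 271, 325 and 322 CPM with doxycycline in lines 3, 4 and 5, against 350.2, 495 and 445 CPM without it (log2 fold change -0.49 ± 0.16 SE, adjusted p = 0.160 by edgeR), without overlap of the groups. Its adjusted p was 0.0457 to 0.604 over 18 alternatives, the lowest without both libraries of line 3, and 23.4% of its exonic bases are shared with an annotated gene on the opposite strand. The ephrin receptor genes Epha2 and Epha4 pointed to opposite sides: Epha4 was at 34.7, 47.0 and 51.5 CPM with doxycycline in lines 3, 4 and 5, against 31.9, 38.1 and 33.3 CPM without it (log2 fold change 0.37 ± 0.16 SE, adjusted p = 0.298 by edgeR), and passed without the treated library of line 3 (adjusted p = 0.0243, in a range to 0.874 over 18 alternatives), while Epha2 had a log2 fold change of -0.26, or -0.05 with the offsets (adjusted p = 0.405 by edgeR). Phlda1 and Plaur, the gene of the urokinase receptor, lay at -0.16 and -0.25 on the log2 fold change scale (adjusted p = 0.604 and 0.408 by edgeR). Phlda1 shares 33.0% of its exonic bases with an annotated gene on the opposite strand.

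Levels per transcript length spanned the list more widely than any difference with doxycycline. By the mean of the 2 groups Dusp6 was the highest, with a CPM per kilobase of 120.2 with doxycycline and 152 without it. Areg followed with 135 with doxycycline and 108 without it, and Mapk3 with 94.9 with doxycycline and 109 without it. Dusp2, Egr3, Egr2 and Etv1 were the 4 lowest, at 0.192 to 0.345 CPM per kilobase with doxycycline and 0.173 to 1.98 without it, and the other 34 genes were above 1 CPM per kilobase in both groups. The 1 gene that fell was among the 4 lowest by this mean, which its own fall lowers. Without doxycycline Dusp2, at 1.98 CPM per kilobase, lay above Braf at 1.14 and Nf1 at 1.21.

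**Figure D4:**
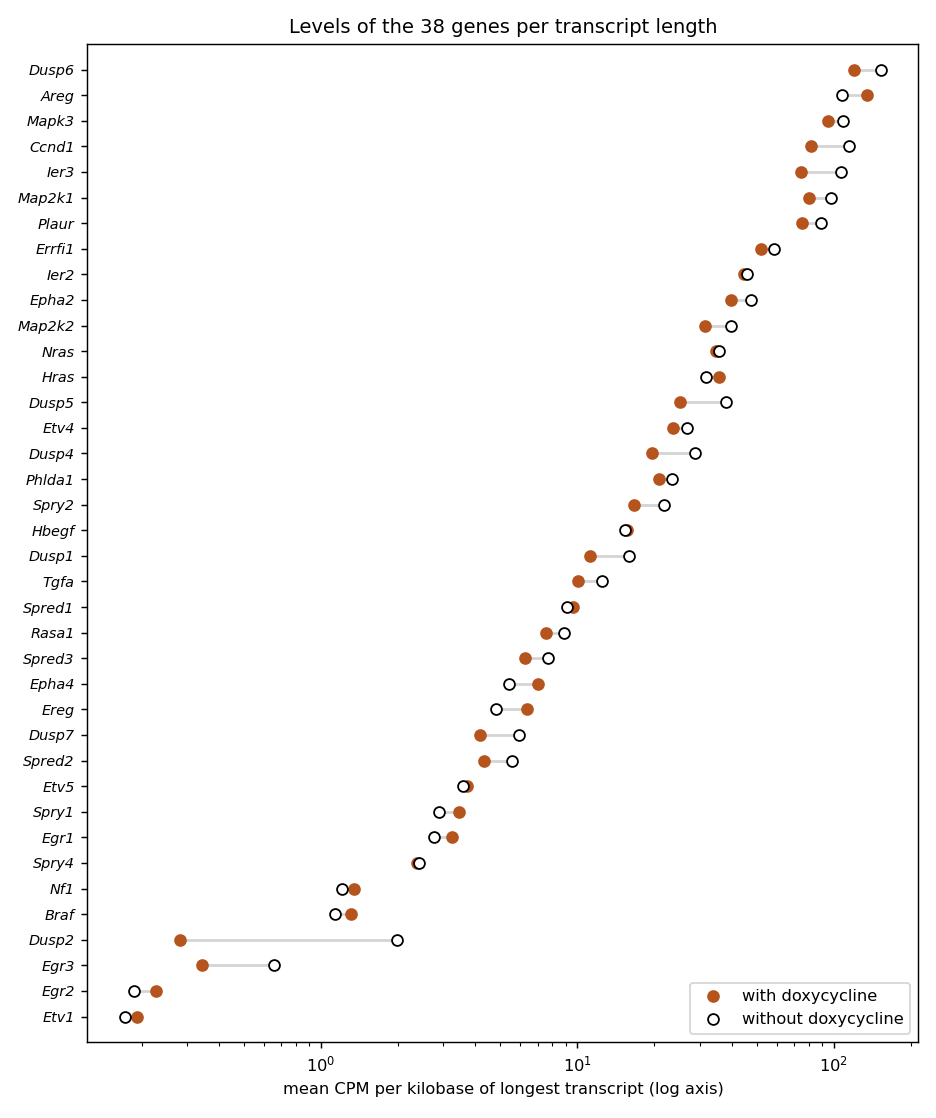
Mean CPM per kilobase of the longest annotated transcript (x axis, log scale) for each of the 38 genes (y axis, ordered by level), with doxycycline (filled) and without it (open), 3 libraries each. Dusp6, Areg and Mapk3 are the highest, and Dusp2, the gene with the widest gap, is among the 4 lowest by the mean of the 2 groups.

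A wider set of 96 other pathway genes, from receptors to further output genes, was read beside the 38. It too was chosen with earlier results of these data known. Of the 90 tested, 4 fell, none rose and 86 did not pass, and their median log2 fold change was -0.21, or -0.12 with the GC content and length offsets and -0.12 without both libraries of line 4. Without the treated library of line 3, 20 of 92 tested fell, beside 867 of all 14968 genes tested. Without both libraries of line 4, 1 of 90 did, beside 27 of all 14530 genes tested. The 4 were Fosb and Fos, which encode subunits of AP-1, Nr4a3, an orphan nuclear receptor induced early by many stimuli, and Rasal3, a RAS GTPase-activating protein gene of lymphocytes. Fosb was at 2.20, 1.45 and 2.14 CPM with doxycycline in lines 3, 4 and 5, against 8.59, 9.84 and 7.33 CPM without it (log2 fold change -2.16 ± 0.25 SE, adjusted p = 0.00167 by edgeR). Fos was at 5.45, 3.40 and 4.33 CPM with doxycycline in lines 3, 4 and 5, against 10.2, 11.8 and 7.18 CPM without it (log2 fold change -1.15 ± 0.25 SE, adjusted p = 0.0452 by edgeR), and its adjusted p was 0.0721 with the line as a block. Nr4a3 had 1 count over the treated libraries and 72 over the untreated ones (adjusted p = 0.00429 by edgeR). Rasal3 had 3 counts over the treated libraries and 138 over the untreated ones (adjusted p = 0.00169 by edgeR), and it too moved beside the T lymphocyte markers, whose part was not tested. Of the 7 AP-1 genes 2 fell, the same Fos and Fosb, and the 7 had a median of -0.56. Of the 11 tested Kruppel-like factor genes 3 fell, with a median of -0.40.

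Of the 3 lines, line 4 had the median log2 ratio farthest from 0. Within lines 3, 4 and 5 the median log2 ratio of the 38 genes was -0.06, -0.34 and -0.12, against 0.00, -0.01 and 0.00 over all genes tested, and 21, 28 and 23 genes were below 0. Npm1 remained at 3.39%, 13.2% and 20.8% in lines 3, 4 and 5, and its part in these differences was not tested. The treated library of line 4 was the lowest of the treated ones for 20 of the 38 genes (52.6%, against 33.4% over all genes tested). The untreated library of line 4 was the highest of the untreated ones for 29 of them (76.3%, against 35.2%). The summed level of the 38 genes was 2839, 2550 and 2976 CPM with doxycycline in lines 3, 4 and 5, against 3006, 3533 and 3269 CPM without it. The epithelial markers had their lowest and highest sums in the same libraries of line 4, and their part in the pattern was not tested. Without both libraries of line 4 no member passed, and the median of the 38 genes was -0.13. With 1 library per line and condition, whether the lines differ in their response was not tested.

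**Figure D5:**
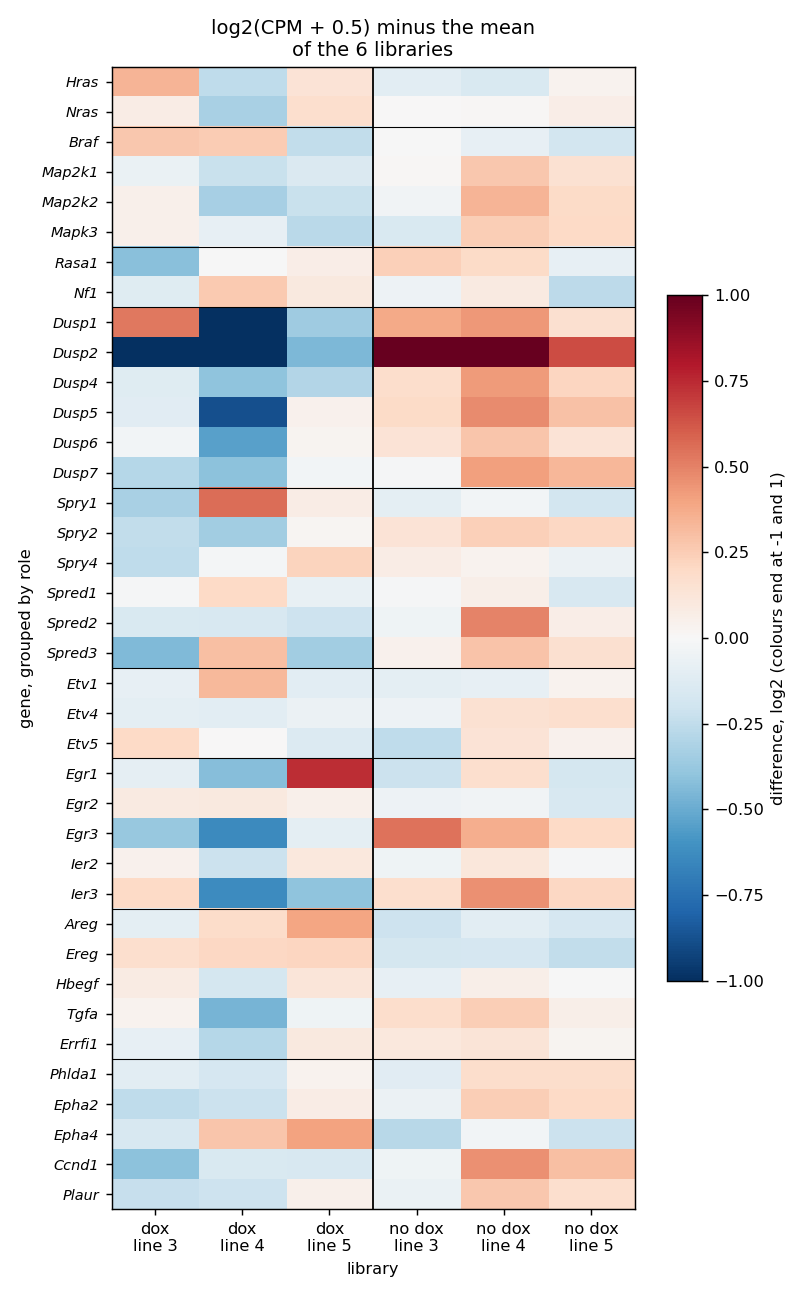
Log2(CPM + 0.5) of each of the 38 genes (y axis, grouped by role) minus its mean over the 6 libraries (x axis, with doxycycline on the left). Blue is below the mean and red above it, and colours end at -1 and 1; the columns of line 4 are the bluest among treated and the reddest among untreated libraries for most genes, and Dusp2 is beyond the colour range in several.

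Levels over both conditions were also compared between lines. In a fit with doxycycline and line, none of the 38 genes passed for a difference between lines (edgeR quasi-likelihood test of the line terms, smallest adjusted p = 0.868). None had an unadjusted p under 0.05. Over all genes tested the same test called 0%, with 4.59% at an unadjusted p under 0.05. On simulated counts it recovered 2.99%, 29.9% and 80.3% of genes changed 1.5-fold, 2-fold and 4-fold in line 5. The fit uses the same line terms for both conditions. Opposite shifts with and without doxycycline, as in line 4, therefore go into the spread it tests against. The gene with the smallest unadjusted p, 0.0606, was Spred3, at 20.3, 34.2 and 21.6 CPM with doxycycline and 28.6, 34.0 and 31.1 CPM without it. Without a filter on low counts Dusp1 passed (adjusted p = 0.0341), with fitted levels in lines 4 and 5 below that of line 3 by log2 differences of -0.81 and -0.62. The lines spread more with doxycycline than without it: the SD of log2 CPM was larger among the treated libraries for 27 of the 38 genes (71.1%), against 74.6% of all genes tested.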

How the data were processed

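RNA was sequenced from 6 libraries, and the authors deposited gene counts, 1 table per library. Build mm10 comes from the submitters' processing notes, which also name R 3.3.0, STAR, HTSeq, Picard, CASAVA, bedtools and DESeq2. The sources used here do not give their roles, other versions, the annotation release or the strand setting. Rows naming no gene held 43.7% to 47.7% of reads and were left out. The treated library of line 3 had the largest share and the fewest counts in genes. Reads not aligned uniquely were 37.8% in that library, against 31.4% to 34.6% in the others. Symbols were matched for 48144 of 48526 identifiers. Counts were tested with edgeR 4.0.16 in R 4.3.3 (low-count filter by filterByExpr, TMM scaling, quasi-likelihood test, Benjamini-Hochberg adjustment over 14531 genes, threshold 0.05), with the 2 groups as the only term. CPM use TMM-scaled library sizes, and the SE is the log2 fold change over the root of the F statistic. The biological coefficient of variation was 18.0%.

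Same-numbered libraries come from the same stable line, which pairs them by design, and their deviations correlated by 0.0048, 0.0674 and 0.0276. Treated and untreated libraries of different lines correlated by -0.102 to 0.0670. Alternatives were RLE scaling, other filters, the line as a block, DESeq2 1.42.0, limma-voom 3.58.1, GC and length offsets, removal of leukocyte genes, and leaving out libraries or lines. The members and lists were chosen with earlier results of these data known. Values in every library are given for genes that passed, the 2 of smallest p and the highest level per length in each role group, and Npm1. Other pathway genes are named where they passed, up to 6. Values in every library of Dusp1, Dusp5, Dusp7, Egr1, Ier2, Spred3 and Btc go beyond this rule and were added after they were seen. On simulated counts with 14531 genes, the doxycycline test recovered 19.4%, 53.7% and 89.4% of genes changed 1.5-fold, 2-fold and 4-fold. It also called 13 genes that had not been changed. The counts were simulated without differences in level between lines other than random spread.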

Additional observations from a re-analysis of the deposited data

How the results depend on the processing

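Of 357 values of the 20 members named by rule, recomputed under the alternatives, 338 kept their direction and their side of the threshold, 11 newly passed, 4 no longer passed and 4 changed sign. These 4 sign changes were of Etv1 and Nras, each without the treated library of line 4 and without both of its libraries; with libraries left out Etv1 ranged from a log2 fold change of -0.089 to 0.32 and Nras from -0.14 to 0.10, and neither passed. Among the other 18 members, 7 changed sign under at least 1 alternative (Egr1, Etv5, Hbegf, Ier2, Spred1, Spry1 and Spry4), and 2 newly passed under 1 (Dusp1 and Dusp5). The number of members that fell was 4 without a filter on low counts, 0 among genes of at least 5 CPM, where Dusp2 was not tested, and 2 with DESeq2. Over all genes the calls were 1052, 49 and 720 under those settings. Leaving out libraries or lines gave 0 to 4 members lower, 0 to 2 higher and 62 to 1551 calls over all genes. The extremes came without the treated library of line 3 (1551) and without line 4 (62). The cause was not tested. The number of members that differed between lines was 1 without a filter.

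With the line as a replicate block, 243 genes were called over all genes against 332 without it. Dusp2 passed in both (adjusted p = 0.0378 with the block), and the block changed the call of no other member.

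With 3 libraries per group and 1 per line and condition, p-values of fits without a line term measure the spread between lines. With the line as a block, and in the test between lines, they measure the spread left after line and doxycycline are fitted. The depth behind Dusp2, 5 to 22 counts with doxycycline, limits its fold change.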
